A study of Mus musculus with 86 samples.

Results

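The 3′ UTR of mouse Kcnj12 was cut into a tile of overlapping reporter oligos, and every oligo whose name carries the symbol Kcnj12 was taken from the count files of 3 assays. These were 836 oligos of the 11955 in a pool that covers 16 gene symbols. Of them, 501 were unmutated and 335 were companions in which the TDP-43 motifs had been mutated, and 166 of the unmutated oligos held no motif. Each oligo was 260 nt long and started 6 nt after its neighbor, so neighboring oligos share nearly all of their sequence and are not independent of each other. All 836 oligos were listed in the massively parallel reporter assay (MPRA), 804 in RNA Bind-n-Seq (RBNS) and 809 in SLAM-seq.

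TDP-43 is an RNA-binding protein that prefers GU-rich RNA and is found in inclusions in most patients with amyotrophic lateral sclerosis. It acts on splicing in the nucleus and on the stability, transport and translation of RNAs in the cytoplasm, often through sites in 3′ UTRs. Kcnj12 encodes Kir2.2, an inwardly rectifying potassium channel that helps to hold the resting membrane potential of excitable cells. The pool asks which stretches of its 3′ UTR make the amount of an RNA in soma and neurites depend on TDP-43.

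The cells were CAD, a mouse catecholaminergic neuronal line, and N2A, a mouse neuroblastoma line. Both carried the genotype TetOff TDP-43, in which the endogenous alleles were inactivated and a single HA-tagged TDP-43 transgene is switched off by doxycycline. Cells without doxycycline are called wild-type and cells with doxycycline knockout, at 2 µg/mL for 48 h by the labels, so the knockout cells also differ from the wild-type cells in the drug and both groups are clonal derivatives that lack the native gene. Soma and neurites were separated on porous membranes and their RNA was sequenced in 3 wild-type and 3 knockout cultures of each line. In a further CAD line, a single transgene encoding wild-type or Q331K TDP-43, a substitution seen in amyotrophic lateral sclerosis, was induced by doxycycline in cells that kept their endogenous alleles, again with 3 cultures per group. The MPRA used 4 libraries for each of soma and neurites of wild-type and knockout CAD cells transfected with GFP reporters. RBNS mixed the RNA pool with recombinant TDP-43 in vitro and had 1 input library, 1 library at 0 nM protein and 2 libraries at each of 5, 50 and 500 nM. SLAM-seq labelled RNA of the reporters in CAD cells with 4-thiouridine and had 2 libraries of wild-type cells at 0 h of chase, 3 at 12 h, 3 of knockout cells at each of 0 h and 12 h, and 3 of wild-type cells without label. Separate cultures are not named for every library, so the p-values measure the spread between these libraries.

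The MPRA libraries held between 7923270 and 12208997 UMIs, the RBNS libraries between 1806779 and 9646262 reads, and the SLAM-seq libraries between 10782983 and 33024830 reads. The RNA-seq libraries held between 22726534 and 32895542 estimated counts in CAD and N2A and at least 9783050 in the transgene lines. Of 8 neuronal marker genes, 7 had a median TPM of at least 1 in each of the 3 RNA-seq experiments. Of 5 catecholaminergic markers, 3 did so in CAD and none in N2A, and markers of microglia summed to at most 1.75 TPM in any library. Oligodendrocyte markers summed to at most 12.3 TPM, endothelial markers to 6.59 TPM and astrocyte markers to 4.22 TPM. Fibroblast markers summed to at most 2.98 TPM in CAD and N2A but to between 7.43 and 26.9 TPM in the transgene lines. In the oligo files, 1 SLAM-seq library of knockout cells at 12 h (replicate 1) stood apart, and counts of calls that use it are given with and without it.

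In the tile, the mutated bases of the companions mark 18 motif sites, each made of overlapping or single copies of GU-rich pentamers. The pentamer GTGTG was mutated to the sequence CACAC, while TGTGT was changed into the sequence ACACA, and where GTATG occurred the companions carry CATAC. Sites 60 nt or less apart were merged into 9 clusters, numbered from the 5′ end. Clusters 1, 2, 3, 4, 6, 8 and 9 hold 1 site each, of 8 nt in cluster 1 and 5 nt in the others. Cluster 5 holds 6 sites with 43 motif nt within a span of 192 nt. Cluster 7 holds 5 sites with 81 motif nt within 121 nt, and its first site is an unbroken GU-rich run of 53 nt, called the long site here.

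Motif spacing placed the tile on the plus strand of chromosome 11 of GRCm38 (mm10), at chr11:61070368-61073627. Bases 1 to 97 of the tile are the end of the coding sequence, and the stop codon is at tile positions 98 to 100. The last exon of the GENCODE vM21 gene ends at chr11:61071131, tile position 764, while RefSeq's gene for GRCm38.p6 ends at chr11:61073269, tile position 2902. Positions beyond the vM21 exon assume that the tile has no gap. Only 85 unmutated oligos lie wholly within the vM21 transcript, and they hold clusters 1 and 2 but none of the sites from 3 onward. Clusters 3 to 8 lie between these gene ends, in 3′ UTR that only RefSeq's gene model covers, and cluster 9 lies past both ends. Cluster 7 is at chr11:61072840-61072960, and its long site is at chr11:61072840-61072892. The 2 sites inside the vM21 exon are shown, with the site in capitals and 11 nt on either side, to set the short motifs against the 53-nt run.

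Site 1 (cluster 1, chr11:61070768-61070797): tgggaggaggcTGTGTATGtacacttcatt

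Site 2 (cluster 2, chr11:61070908-61070934): taaaattcctgGTGTGgggacagttgg

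Endogenous Kcnj12 RNA rose in the neurites of CAD cells that lacked TDP-43 and differed little in their soma. In wild-type neurites its level was 16.9, 15.0 and 17.6 CPM, counts scaled by TMM to library size, in the 3 cultures, and in knockout neurites it was 78.0, 95.1 and 91.3 CPM. In soma it was 16.4, 17.2 and 18.9 CPM in wild-type cells and 16.5, 18.7 and 17.4 CPM in knockout cells. The neurite values of the 2 groups do not overlap, while the soma values do. The neurite difference between knockout and wild-type cells was 2.41 on the log2 scale (SE 0.09), or 5.33-fold, with an edgeR FDR of 2.17e-11, and the soma difference was 0.00 (SE 0.09, FDR 0.99). In all, 25.3% of 17343 genes passed an FDR of 0.01 in neurites and 22.8% in soma. In bulk RNA, fewer cells in a fraction and less RNA per cell cannot be told apart.

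The localization ratio (LR) compares neurites with soma, as the log2 ratio of an RNA between these compartments. In CAD, Kcnj12 had an LR of −0.08 ± 0.12 in wild-type cultures and 2.33 ± 0.08 in knockout cultures (SD, n = 3 each). The LR change, knockout minus wild-type, was 2.41 (SE 0.13, FDR 7.1e-09), the 10th smallest p-value among 17343 genes, of which 0.225% passed with a higher LR. The study picked the tiled 3′ UTRs with the CAD results in hand, so this change is not independent evidence for the gene. Read as TPM, which divides by transcript length and by the total of each library, Kcnj12 stood at 3.66 ± 0.992 in wild-type neurites and 12.9 ± 2.71 in wild-type soma (SD, n = 3). The level in neurites relative to soma therefore depends on the scale, while on both scales the knockout neurites (22.2 ± 2.80 TPM, SD, n = 3) stood above the wild-type neurites.

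In N2A cells Kcnj12 rose in both compartments. Its neurite level was 15.9, 17 and 14.3 CPM in wild-type cells and 38.0, 39.5 and 27.5 CPM in knockout cells, and its soma level went from 19.6, 19 and 19 CPM to 25.6, 29.1 and 28.7 CPM. Neither compartment overlaps between genotypes. The log2 differences were 1.15 in neurites (SE 0.12, FDR 7.60e-06, 2.22-fold, 11.6% of 17912 genes called) and 0.54 in soma (SE 0.12, FDR 0.00349, 1.45-fold, 16.1% called). The LR change of 0.61 (SE 0.17, FDR 0.0409) missed the threshold, which 0.1% of genes passed, but passed it without the filter on low counts (0.59, FDR 0.00487). The soma call was lost with upper-quartile scaling (0.43, FDR 0.0132) and without replicate 1 (FDR 0.0114) or replicate 2 (FDR 0.0608). A joint fit of both lines put the LR change 1.82 higher in CAD than in N2A (SE 0.23, FDR 7.59e-05 over 19700 genes). Levels of Tardbp, the gene of TDP-43, in knockout soma were 2.52 lower on the log2 scale in CAD (SE 0.08, FDR 3.35e-12) and 1.78 lower in N2A (SE 0.08, FDR 2.58e-09), so the lines also differed in how far Tardbp RNA fell, and its part in the difference was not tested.

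Between cells that expressed Q331K and wild-type TDP-43, no change of Kcnj12 was called. Its neurite level was 14.6, 14.8 and 13.9 CPM with Q331K and 11.1, 12.1 and 12 CPM with the wild-type transgene, 2 groups that do not overlap. The log2 difference was 0.30 (SE 0.15, edgeR FDR 0.55). Its soma level was 16.1, 18 and 13.3 CPM with Q331K and 15.0, 16.6 and 11.2 CPM with the wild-type transgene, and the LR change was 0.14 (SE 0.21, FDR 0.999). In this comparison 0 of 13940 genes passed for any of the 3 readouts.

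Of 14 other genes of the Kcnj family, which encode the remaining inward rectifiers, 5 had enough counts to be tested in CAD, 6 in N2A and 1 in the transgene lines. None had a called LR change. In CAD, Kcnj9, a subunit of G-protein-gated channels, rose in soma by 2.05 on the log2 scale (SE 0.39, FDR 0.00068), and Kcnj5, of the same channel class, was lower in neurites, with a log2 difference of −1.54 (SE 0.31, FDR 0.000977). Kcnj9 reached at most 0.641 TPM in CAD and Kcnj5 at most 0.516 TPM, while Kcnj12 ranged from 2.83 to 24.5 TPM. Kcnj14 ranged from 2.91 to 18.6 TPM in CAD and had no call. Its LR change was −0.01 (SE 0.15, FDR 0.989), its soma difference −0.25 (FDR 0.0757) and its neurite difference −0.26 (FDR 0.0673).

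In the MPRA, reporters that carried cluster 7 rose in knockout cells, most of all in neurites, and reporters from the rest of the Kcnj12 tile changed little. Of 835 Kcnj12 oligos tested among 11918, the LR change passed an FDR of 0.01 upward for 17 (2.04%; 5.15% of all oligos) and downward for 0 (0.277% of all oligos; 5.43% either way). All 17 were unmutated and hold part or all of cluster 7: oligo 401 and the unbroken row from 406 to 421. In soma 41 oligos rose (4.91%; 7.55% of all oligos) and 0 fell (0.101%; 7.65% either way). In neurites 52 rose (8.06% of all oligos) and 6 fell (0.696% of all oligos; 8.76% either way). The tile as a whole was thus called no more often than the pool, and its calls were gathered in 1 cluster.

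Among the 62 unmutated oligos that hold cluster 7, the median difference between knockout and wild-type cells was 0.473 in soma and 0.740 in neurites on the log2 scale, with 40 and 49 of them called higher. Among the 273 unmutated oligos with other motifs the medians were −0.022 and −0.045, with 0 called in soma and 2 called lower in neurites. The 166 oligos without a motif had medians of −0.003 and −0.029, with 1 called lower in neurites. The medians of all oligos tested were −0.008 and −0.021. Scaled to the total UMI count in place of TMM, the medians of all oligos moved to −0.122 in soma, −0.638 in neurites and −0.509 in LR change. The split of Kcnj12 calls then became 36 higher and 103 lower in soma, 21 higher and 769 lower in neurites, and 15 higher and 729 lower for the LR, so directions here are relative to the rest of the pool.

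Oligo 414, at tile positions 2479 to 2738 (chr11:61072846-61073105), had the largest change in neurites and in LR. In neurites its level was 31.4, 37.7, 43.2 and 36.2 CPM in wild-type cells and 750, 718, 775 and 795 CPM in knockout cells. In soma it was 61.4, 55.0, 51.3 and 46.3 CPM in wild-type cells and 241, 252, 235 and 218 CPM in knockout cells. Neither compartment overlaps between genotypes, and the rise in neurites was larger than that in soma. The log2 differences were 4.36 in neurites (SE 0.083, FDR 1.04e-23, 20.5-fold) and 2.14 in soma (SE 0.078, FDR 5.60e-17, 4.42-fold), which gives an LR change of 2.21 (SE 0.111, FDR 2.31e-14).

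The companion of oligo 414, in which the motif bases were mutated, was not called in either compartment. Its neurite level was 52.8, 54.8, 45.5 and 55.9 CPM in wild-type cells and 52.9, 53.8, 51.7 and 52.6 CPM in knockout cells. Its soma level was 45.0, 51.0, 51.3 and 48.5 CPM in wild-type cells and 52.7, 50.3, 46.3 and 46.7 CPM in knockout cells. The groups overlap in both compartments, and its LR change was 0.01 (SE 0.092, FDR 0.991). In wild-type neurites, each library of oligo 414 lay below each library of its companion, whereas in knockout neurites each lay above.

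Oligo 401 is centered on cluster 7 and carries the whole cluster. Its neurite level was 15.4, 15.1, 15.2 and 18.4 CPM in wild-type cells and 29.9, 32.7, 34.4 and 30.6 CPM in knockout cells, and its soma level went from 31.6, 31.4, 28.4 and 24.1 CPM to 42.7, 40.1, 39.5 and 40.1 CPM. The genotypes do not overlap in either compartment, but the change was far smaller than that of oligo 414. The log2 differences were 1.0 in neurites (SE 0.094, FDR 3.38e-09) and 0.49 in soma (SE 0.078, FDR 2.78e-05), with an LR change of 0.50 (SE 0.123, FDR 0.00798). This LR call was lost with read counts in place of UMIs (FDR 0.0281) and with a term for replicate number (FDR 0.0148) or culture (FDR 0.0297). It was also lost without replicate 1, 2 or 3 (FDR 0.0548, 0.176 and 0.139). The LRs of oligo 401 overlap, reaching −0.391 in wild-type cells and running from −0.516 to −0.2 in knockout cells. Its companion had no call, with differences of 0.28 in neurites (FDR 0.123) and 0.19 in soma (FDR 0.348).

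The size of the change differed with where the long site lay in the oligo. In oligos 371 to 378, the long site enters at the 3′ end, and their neurite differences ran from 0.00 to 0.56. Oligos 379 to 405 hold the whole long site, and their median was 0.68 in neurites (1.60-fold) and 0.43 in soma, with 23 and 14 of 27 called. Oligos 406 to 413 also hold it whole, nearer to the 5′ end, and their medians were 3.03 in neurites (8.15-fold) and 1.99 in soma (3.98-fold), with all 8 called in both. Between oligos 405 and 406 the long site moves from position 49 to position 43 of the oligo, and the neurite difference goes from 0.60 to 2.93 and the soma difference from 0.45 to 1.97.

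This step of 2.33 on the log2 scale in neurites was the largest increase between neighbors among the unmutated oligos tested, the next being 1.09 at oligo 414, and the pair was singled out after its values were seen. Oligo 405 had 31.5, 29.6, 41.6 and 38.4 CPM in wild-type neurites and 41.9, 51.3, 64.7 and 55.1 CPM in knockout neurites. Oligo 406 had 40.8, 43.5, 39.6 and 39.3 CPM in wild-type neurites and 304, 304, 321 and 312 CPM in knockout neurites. The 2 oligos thus overlap in wild-type neurites and are far apart in knockout neurites. The same holds in soma, where wild-type means were 56.7 ± 6.61 CPM for oligo 405 and 58.8 ± 9.30 CPM for oligo 406, and knockout means were 77.3 ± 2.03 and 229.7 ± 6.49 CPM (SD, n = 4). The companions of both had neurite differences of 0.15 and 0.06, so no step was seen with the motifs mutated.

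From oligo 414 on, the long site is lost from the 5′ end of the oligo 6 nt at a time. Oligo 414 keeps 47 nt of it, oligo 416 keeps 35 nt, oligo 418 keeps 23 nt, oligo 420 keeps 11 nt and oligo 422 none. Their neurite differences were 4.36, 3.73, 3.09, 1.94 and 1.08 in this order, and their soma differences were 2.14, 1.95, 1.64, 1.09 and 0.82. In both compartments these 5 oligos stand in the order of the length they keep, but oligo 415, with 41 nt, had a neurite difference of 3.68, below that of oligo 416. Oligo 413, with all 53 nt, had a neurite difference of 3.27, lower than that of oligo 414, and the highest soma difference of the tile at 2.29 (SE 0.080, 4.89-fold). Oligos 422 to 432, which keep other sites of cluster 7 but no long site, had medians of 0.43 in neurites and 0.37 in soma, and 7 and 6 of 11 were called. None of them had a called LR change.

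The companions of these oligos did not follow this course. The medians of mutated oligos 379 to 405 were 0.00 in neurites and 0.03 in soma, and those of mutated oligos 406 to 413 were 0.05 in each. Of 62 mutated cluster 7 oligos, 3 were called higher in neurites and 1 in soma, and the largest neurite difference among all 62 was 0.38. The 1 called in soma was the companion of oligo 432, with 0.18 (SE 0.045, FDR 0.00732).

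In wild-type cells, the same reporters were depleted from neurites relative to soma. The wild-type LR was called lower for 39 Kcnj12 oligos (1.48% of all oligos) and higher for 2 (2.57% of all oligos), and all 39 are unmutated cluster 7 oligos. Without replicate 1, 23 oligos were called in place of 41. Oligos 379 to 405 had a median wild-type LR of −0.68, oligos 406 to 413 one of −0.52, oligos 414 to 421 one of −0.39 and oligos 422 to 432 one of 0.01. The order across the tile thus differs from that of the knockout differences: the lowest wild-type LRs belong to oligos before the step. The lowest was that of oligo 400, at −0.98 (SE 0.123, FDR 2.55e-06), with 11.9, 14.1, 11.8 and 14.5 CPM in wild-type neurites and 31.2, 26.1, 23.1 and 22.2 CPM in wild-type soma. In knockout cells, oligo 400 stood at 23.8, 24.9, 32.0 and 25.3 CPM in neurites and 42.6, 33.6, 39.0 and 32.3 CPM in soma, so it remained lower in neurites. Oligo 414 changed sides, with LRs of −0.969, −0.544, −0.247 and −0.354 in the wild-type replicates and 1.64, 1.51, 1.72 and 1.86 in the knockout replicates.

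No other cluster showed such changes. Cluster 5 has more sites than cluster 7 and is held by 74 oligos, yet its center, oligo 339, had 176, 158, 171 and 180 CPM in wild-type neurites and 174, 163, 163 and 163 CPM in knockout neurites. These overlap, and the difference was −0.05 (SE 0.043, FDR 0.554). Oligo 339 had a wild-type LR of 0.21 (SE 0.042, FDR 0.00124), 1 of the 2 rises in the tile, and the other was the companion of oligo 377 (0.23, SE 0.044). The call of oligo 339 was lost with total UMI scaling (FDR 0.0132) and without replicate 1, 3 or 4 (FDR 0.0163, 0.0108 and 0.05). That of the companion of oligo 377 was lost with read counts in place of UMIs (FDR 0.0185) and without replicate 4 (FDR 0.0196). The 6 oligos called lower in neurites were oligos 222, 323 and 326 and the companions of 309, 328 and 329, and the largest fall was that of the companion of oligo 329, from 72.5 ± 4.05 to 60.3 ± 1.5 CPM (SD, n = 4; difference −0.27, SE 0.053, FDR 0.00052). All but oligo 222, which has no motif, hold cluster 5. The calls of the companions of oligos 329 and 328 were lost without replicate 4 (FDR 0.0116 and 0.0521). That of oligo 323 was lost without replicate 1, 2, 3 or 4 (FDR 0.021, 0.0927, 0.0198 and 0.0266).

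The centers of clusters 1, 2, 3, 4, 8 and 9 and oligo 196, which lies 332.5 nt from the nearest motif, had neurite differences between −0.17 and 0.11, none called. Few reads are taken to cover the motif bases of these cluster centers. Their counts may therefore include reads of their companions, which could dilute a change, so these values alone do not show that a cluster is inactive. Oligo 48, the center of cluster 1, had 67.5 to 70.4 CPM in knockout neurites and 65.2 to 75.3 CPM in wild-type neurites, and oligo 196 had 14.0 to 19.3 and 13.7 to 16.7 CPM. Oligo 380, the center of cluster 6, also holds the long site near its 3′ end, and had a soma difference of 0.29 (SE 0.076, FDR 0.013) and a wild-type LR of −0.43 (SE 0.081, FDR 0.000744). This wild-type LR call was lost without replicate 1 (FDR 0.0264) or replicate 2 (FDR 0.0108).

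The motif effect, the difference in log2 ratio of an oligo to its companion between knockout and wild-type cells, was tested within libraries for 325 Kcnj12 pairs among 4524. In neurites 46 pairs were called higher (14.4% of all pairs), in soma 32 (12.6%) and for the LR change 16 (7.63%; 7.65% either way). None was called lower in neurites (0.111% of all pairs), in soma (0.0884%) or for the LR change (0.0221%). All of them hold cluster 7. For oligo 414 and its companion, the log2 ratio was −0.75, −0.54, −0.08 and −0.63 in wild-type neurites and 3.82, 3.74, 3.91 and 3.92 in knockout neurites. In this pair the unmutated reporter was thus more abundant than its companion in knockout neurites and less abundant in wild-type neurites. No library of the plasmid pool was among the samples, and the ratio is not scaled to it, so only its change between genotypes is read. In wild-type neurites it was 0.7, 0.77, 1.06 and 0.92 for oligo 417 and −3.45, −3.2, −3.18 and −3.3 for oligo 380. The motif effect of oligo 414 in neurites was 4.34 (SE 0.111, FDR 3.75e-19), or 20.3-fold, followed by 3.58 for oligo 408 and 3.54 for oligo 416.

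In 53 of the 335 pairs, all the changed bases lie between positions 104 and 171 of the oligo. For sites there, SLAM-seq T positions per MPRA UMI fell under 0.2 of the median over pairs with 1 mutated site. Few reads are thus taken to cover this stretch, which was not measured in the MPRA or RBNS. In these 53 pairs the UMI counts of oligo and companion differed by a median of 0.025 on the log2 scale, against 0.467 for the other 282 pairs. In RBNS the medians were 0.411 and 0.661, so these pairs were less alike there. The named centers of clusters 1, 2, 3, 4, 8 and 9 are in this class, so nothing is read from their comparison with their companions. With such pairs left out, 47 pairs were called in neurites, 36 in soma and 16 for the LR change. The called oligos of cluster 7 and their companions are told apart by at least part of their changed bases.

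In RBNS, purified TDP-43 enriched cluster 7 oligos at 50 and 500 nM and cluster 5 oligos at 500 nM only. Oligos that hold cluster 2 or cluster 8 alone were also enriched at 500 nM on average. At 500 nM unmutated cluster 5 oligos were enriched above their mutated companions. The enrichment R is the frequency of an oligo among the bound reads over that in the input. Of 753 Kcnj12 oligos tested among 11025, 0 passed an FDR of 0.05 at 5 nM by edgeR (0.0454% of all oligos either way, 0.0272% higher and 0.0181% lower; 141 at an unadjusted p under 0.05; 20 by DESeq2). At 50 nM 75 rose (11.5% of all oligos) and 203 fell (31.4%), and at 500 nM 110 rose (12.3%) and 137 fell (29.2%). With TMM scaling, which moves the median of all oligos from −0.621 to −0.05 at 50 nM and from −0.55 to 0.01 at 500 nM, the split became 97 rises and 118 falls at 50 nM and 156 rises and 63 falls at 500 nM. The input is a single library, and against the 0 nM library the split was 74 rises and 39 falls at 50 nM and 169 rises and 85 falls at 500 nM. Single libraries also moved these counts, to 167 without replicate 1 and 55 without replicate 2 at 50 nM, and to 147 without replicate 1 at 500 nM, each fit assuming that the remaining library varies like the other groups. At 5 nM, 13 falls were called without replicate 1 at 500 nM and 14 without replicate 2.

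Input reads were few in cluster 7, where 14 of the 62 unmutated oligos had at least 50 input reads, and of the 35 with the full long site only 2 did. Oligo 393, 1 of these 2, had 78 input reads and R values of 8.34 and 11.2 at 50 nM, 6.43 and 4.39 at 500 nM, 1.74 and 3.42 at 5 nM, and 0.863 without protein. Oligo 390 was called higher at 50 nM with a log2 difference of 4.69 (SE 1.01, FDR 0.00647), but on 10 input reads, and the call was lost without replicate 2 at 50 nM (FDR 0.0546).

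At the 3′ side of cluster 7, no difference between oligos and companions was detectable at this depth. In oligos 417 to 432, of which 417 to 421 keep part of the long site, the 11 unmutated oligos with at least 50 input reads had a mean log2 R of 2.30 at 50 nM and 2.35 at 500 nM, and the 11 companions had 2.53 and 2.54. Oligo 419 had R values of 6.68 and 11.4 at 50 nM and its companion 5.32 and 10.7. In this pair the values overlap. Of 14 cluster 7 pairs tested, 0 were called at 500 nM, where the median motif effect was −0.087 against 0.271 over all pairs. Companions of oligos 379 to 405 had at most 8 input reads, which leaves little to compare in those pairs.

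The motif effect on binding at 500 nM was called higher for 31 Kcnj12 pairs of 207 (18.7% of all 3269 pairs) and lower for 0 (4.41% of all pairs). Without replicate 1 or replicate 2 at 500 nM, 13 and 15 pairs were called, all higher. Without replicate 1 at 5 nM, 42 pairs were called higher and 7 lower, and without replicate 2 at 5 nM 41 and 7. Of the 31, 22 are in the 33 tested pairs of cluster 5, 4 in the 24 pairs of cluster 1 alone, 3 in the 9 that hold clusters 8 and 9, and 2 in the 23 of cluster 9 alone. Their motif effects ran from 1.01 to 3.08 on the log2 scale. At 50 nM 0 pairs were called (3.06% of all pairs; 16 at an unadjusted p under 0.05; 3 without replicate 1 at 50 nM) and at 5 nM 0 (0.0918% of all pairs; 5 at an unadjusted p under 0.05). All 31 were among 160 pairs whose changed bases lie at least partly outside positions 104 to 171.

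Oligo 314, which carries 3 sites of cluster 5, had the largest motif effect. Its R was 3.35 and 3.72 at 500 nM, and that of its companion 0.400 and 0.438. At 50 nM the values were 0.444 and 0.897 against 0.289 and 0.361, and without protein 0.239 against 0.367. The oligo was thus above its companion at 50 nM, and the gap was wider at 500 nM. The motif effect at 500 nM was 3.08 (SE 0.354, FDR 0.00171), followed by oligo 328 with 2.82 (R of 3.42 and 3.57 against 0.445 and 0.548) and oligo 316 with 2.77 (4.68 and 4.04 against 0.594 and 0.692). In the MPRA, oligo 314 had 0 of 4 readouts called, with a neurite difference of −0.09 (SE 0.045, FDR 0.297).

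Over the 47 unmutated cluster 5 oligos with at least 50 input reads, the median R at 500 nM was 1.87 and 2.02 in the 2 libraries, and over 43 companions it was 0.656 and 0.722. At 50 nM the medians were 0.415 and 0.54 for the unmutated oligos and 0.527 and 0.394 for the companions, all below the input. Without protein the medians were 0.369 and 0.611. No pair that holds cluster 5 but not cluster 7 was called in the MPRA, where all 74 pairs of cluster 5 were tested. The companion of oligo 358, which holds part of cluster 5, was nearly absent from every library other than the input. It had 221 input reads, 0 reads at 0, 5 and 50 nM, and 2 and 3 reads at 500 nM. Its fall at 50 nM was therefore also present without protein.

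Of oligos 433 to 443, which hold cluster 8 alone, 10 had at least 50 input reads. Their mean log2 R was 1.36 at 500 nM and −0.06 at 50 nM, and that of 11 companions 1.474 and 0.145. Oligo 438, the center of cluster 8, had R values of 4.84 and 4.26 at 500 nM. Its counts may include reads of its companion, so the 2 are not compared. The 22 oligos from 71 to 92, which hold cluster 2 alone, had a mean log2 R of 0.74 at 500 nM and −1.39 at 50 nM. A pair of stretches without any motif were enriched as well. The 15 oligos of 93 to 118 with at least 50 input reads had a mean log2 R of 1.30 at 500 nM and −0.45 at 50 nM. At the 3′ end of the tile, the 16 oligos of 486 to 501 had 1.70 at 50 nM and −0.04 at 500 nM. Neither stretch had a call in the MPRA. Oligos 180 to 216 had 0 to 48 input reads, so their binding could not be read, although their median UMI count in the MPRA was 217.5.

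SLAM-seq followed the loss of label from RNA of the reporters during a chase of 12 h. The share of T positions read as C had a median over 723 Kcnj12 oligos of 1.95 and 1.94% in wild-type cells at 0 h and of 1.13, 1.13 and 1.29% at 12 h. In knockout cells it was 1.79, 1.80 and 1.86% at 0 h and 1.33, 0.425 and 0.478% at 12 h, and without label it was 0.259, 0.198 and 0.172%. The first knockout library at 12 h thus lay near the wild-type level and away from the other two, in the whole pool as in Kcnj12 (1.37, 0.432 and 0.480% over all 10576 oligos).

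With all libraries, label loss was called for 702 Kcnj12 oligos in knockout cells (97.1%; 97.2% of all oligos), with a median log2 difference of −1.45 against −1.50 over all oligos. In wild-type cells 0 passed the FDR of 0.05 by edgeR (0.00946% of all oligos; 101 at an unadjusted p under 0.05; 13 by limma), with a median of −0.716 against −0.706. The difference in loss between genotypes had 0 calls by edgeR (0% of all oligos; 9 at an unadjusted p under 0.05; 0 by limma), and the label at 0 h had 0 by edgeR and by limma (0% of all oligos; 0 at an unadjusted p under 0.05). Without knockout replicate 1 at 12 h, 685 oligos lost label in wild-type cells and 718 in knockout cells, and the loss was called larger in knockout cells for 677 and smaller for 2. In the wild-type cells and for the difference between genotypes, 1 library thus decided the calls. Over all oligos, the median share at 12 h was 0.432 and 0.48% in the remaining knockout libraries and 1.16, 1.16 and 1.32% in wild-type cells. The larger loss was thus present across the pool, and these counts are not read as a trait of Kcnj12.

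Relative to the median of each library, and without that replicate, the change in loss was called toward less loss in knockout cells for 19 of 60 unmutated cluster 7 oligos and toward more for 2. For 58 mutated cluster 7 oligos the counts were 1 and 3, and for the other 605 Kcnj12 oligos 53 and 16. Of all oligos, 20.2% were called in either direction and 12% toward less loss. The medians were 0.461, 0.146 and 0.044 against 0.010 over all oligos. Both the scaling and the omission were chosen after the data were seen, and with all libraries no such call was made.

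In both wild-type and knockout cells, the median labelled share of unmutated oligos with the long site was below that of their companions. Over the 16 unmutated oligos from 406 to 421, the median share was 1.32% ± 0.004 (SD, n = 2) in wild-type cells at 0 h and 0.776% ± 0.049 (SD, n = 3) at 12 h. Over their companions it was 1.97% ± 0.027 and 1.31% ± 0.068. In knockout cells the share was 1.3% ± 0.016 at 0 h and 0.597% ± 0.345 at 12 h (SD, n = 3). The 12 h libraries were 0.994, 0.37 and 0.427%, so replicate 1 raised the mean. For the companions in knockout cells the share was 1.84% ± 0.019 and 0.88% ± 0.461, with 1.41, 0.616 and 0.611% in the 12 h libraries. Oligos 379 to 405, which changed less in the MPRA, had shares as low in wild-type cells, of 1.28% and 0.701%. For 23 of their companions these were 1.7% and 1.04%. In knockout cells the shares of oligos 379 to 405 were 1.11% and 0.509%, against 1.58% and 0.651% for these companions. The 12 h means include replicate 1. Single 12 h libraries ran from 0.391 to 0.71% and, for the companions, from 0.374 to 1.12%, so they overlap. Without label the values for oligos 406 to 421 and their companions were 0.237% ± 0.019 and 0.242% ± 0.068 (SD, n = 3), close to each other. An oligo and its companion do not have the same T positions, since the mutated motifs lose their Ts, so their shares are measured over different bases.

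Oligo 412, which holds the long site near its 5′ end, departed most from its companion. In wild-type cells its share was 2.22 and 2.17% at 0 h and 0.784, 0.823 and 0.825% at 12 h. In knockout cells it was 1.28, 1.13 and 1.26% at 0 h and 0.926, 1.38 and 1.55% at 12 h. Its label thus fell in wild-type cells and did not fall below the range at 0 h in 2 of 3 knockout libraries. Its companion went from 1.93, 1.73 and 1.49% to 1.07, 0.219 and 0.480% in knockout cells. In the knockout libraries at 12 h, the log2 ratio of oligo 412 to its companion was −0.21, 2.59 and 1.66. For oligo 413 it was −0.46, −1.17 and −0.98, and for oligo 414 −0.5, −1.22 and −1.19. These neighbors share nearly all of its sequence, and the pattern of oligo 412 was not seen in them. The motif effect of oligo 412 on the change in loss was 2.14 with all libraries (limma FDR 0.949) and 2.92 without knockout replicate 1 (SE 0.390, FDR 0.008). In all, 0 of 274 pairs were called by limma with all libraries (0% of all 3865 pairs; 17 at an unadjusted p under 0.05) and 4 without that replicate (1.5% of all pairs), oligos 378, 379, 412 and 434, each toward less loss in knockout cells.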

How the data were processed

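The authors trimmed reads with cutadapt, aligned oligo reads with bowtie2 and deposited counts per oligo (UMIs in the MPRA, reads in RBNS, T and T-to-C positions in SLAM-seq). For RNA-seq the authors ran Salmon (mm10) and deposited estimated counts and TPM per transcript, which were summed to genes and rounded. Of 86 samples, 74 libraries were used and 12 human samples were not. Counts were tested with edgeR 4.0.16 quasi-likelihood fits over all oligos or genes with Benjamini-Hochberg adjustment, and SLAM-seq pairs with limma 3.58.1. Thresholds were 0.01 for the MPRA and genes and 0.05 for RBNS and SLAM-seq. MPRA and RNA-seq fits used TMM scaling, and RBNS library totals with a pseudocount of 0.5 for R. Pairs needed 50 counts in every library and SLAM-seq oligos 1000 T positions. Up to 0.1294% of the counts of a library had no gene. DESeq2 1.42.0 was an alternative. Oligos were named by cluster center, distance from motifs and the 3 largest called changes each way, and others after their values were seen. The members and lists were chosen with earlier results of these data known. On simulated data, 199 of 200 oligos changed 2-fold were recovered for the MPRA LR change, but 4 of 200 for RBNS at 500 nM, where 185 of 200 changed 8-fold were. For RBNS pairs at 500 nM, 0 of 200 changed 2-fold and 175 of 200 changed 8-fold were recovered. For SLAM-seq pairs, simulated with an assumed spread, 43 of 200 changed 2-fold were, so most changes of that size would be missed. No 2 libraries had more than 1.4% equal values. Alternatives covered scaling, filters, tools, thresholds, omitted libraries and replicate numbers. Readable pairs, crossed RBNS numbers, omission of single RBNS libraries, SLAM-seq rates relative to library medians without 1 library and the joint fit of cell lines were added after the data were seen.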

Additional observations from a re-analysis of the deposited data

Results flagged for a closer look

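Of 132 groups of 4 MPRA libraries tested for a sample far from the others, 8 were so, against about 1 in 20 by chance. In soma of wild-type cells the companion of oligo 328 had 92.5 CPM in 1 library and 104 to 107 in the others, and oligo 464 had 17.5 CPM against 18.2 to 18.3. In wild-type neurites the companion of oligo 339 had 57.1 CPM against 68.1 to 70.0, and oligo 401 had 18.4 CPM against 15.1 to 15.4. In knockout neurites oligo 339 had 174 CPM against 163, oligo 394 had 19 CPM against 24.6 to 25.7, oligo 412 had 274 CPM against 258 to 260, and oligo 438 had 160 CPM against 173 to 174.

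The response of endogenous Kcnj12 to the loss of TDP-43 differed between CAD and N2A cells in an interaction test by edgeR. CAD minus N2A was 1.82 for the LR change (SE 0.23, FDR 7.59e-05), 1.21 in neurites (SE 0.16, FDR 9.15e-06) and −0.61 in soma (SE 0.16, FDR 0.00931).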

How the results depend on the processing

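Of the main results, 275 under the alternatives kept their direction and side of the threshold, 35 counts moved by over 1.5 times, 4 became stronger and 3 weaker. Of the results for named oligos, 900 stayed the same, 12 became stronger, 54 became weaker, 18 reversed and 14 values moved. Not all of these are listed here. Scaling MPRA libraries to total UMI counts gave 744 calls for the LR change, 139 in soma and 790 in neurites. It turned the LR change of oligos 140 (−0.50), 401 (−0.0), 438 (−0.43) and 196 (−0.39), the soma difference of oligos 48 (−0.11), 339 (−0.06) and 438 (−0.08), and the neurite difference of oligos 48 (−0.62), 380 (−0.48), 438 (−0.51), 464 (−0.58) and 196 (−0.60). Without 1 replicate, 23 to 40 oligos had a called wild-type LR, with 23 without replicate 1. RBNS at 5 nM gave 20 calls with DESeq2, 10 with TMM and 4 with crossed numbers in the replicate block. At 50 nM there were 90 at FDR 0.01, 179 with DESeq2 and 113 against the 0 nM library. At 500 nM there were 99 at FDR 0.01. Against the 0 nM library the falls of the companions of oligos 358, 359 and 363 at 50 nM and 360, 366 and 361 at 500 nM became 0.0. Pairs at 50 nM gave 4 calls against 0 nM, and at 500 nM 17 at FDR 0.01. Leaving out a replicate number at every concentration leaves no residual degrees of freedom. Leaving out single protein-bound libraries, added after the data were seen, gave 0 to 14 calls at 5 nM, 55 to 318 at 50 nM and 147 to 266 at 500 nM, and for pairs 0 at 5 nM, 0 to 3 at 50 nM and 13 to 49 at 500 nM. The motif effect of oligo 314 at 500 nM was called in each of these fits, at 3.07 to 3.09.

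For SLAM-seq, rates relative to library medians without knockout 12 h replicate 1 gave 1 call at 0 h, 8 for wild-type loss, 252 for knockout loss and 94 for the change, and limma gave 13 for wild-type loss. With all libraries, relative rates gave 61 for knockout loss. Leaving out single libraries gave 0 to 1 at 0 h, 0 to 685 for wild-type loss, 589 to 719 for knockout loss, 0 to 679 for the change and 0 to 4 for pairs, each highest without knockout 12 h replicate 1. For Kcnj12 in N2A, the LR change was 0.61 at a threshold of 0.05 (FDR 0.0409) and 0.59 without a filter (FDR 0.00487), both past it. The soma difference was 0.43 with upper-quartile scaling (FDR 0.0132) and 0.57 to 0.60 without 1 replicate (FDR 0.0114 without replicate 1 and 0.0608 without replicate 2). The wild-type LR was −0.29 at 0.05 and −0.58 with upper-quartile scaling, both past it. The causes were not tested.

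Correlations between the deviations of same-number libraries ran from −0.07 to 0.17 in the MPRA (6 of 24 over 0.1), −0.08 to 0.47 in CAD (12 of 18), −0.15 to 0.46 in N2A (14 of 18), −0.16 to 0.19 in the transgene lines (6 of 18), −0.31 to 0.35 in SLAM-seq (3 of 26) and −0.27 to 0.15 in RBNS (2 of 6). Since not every pair was over 0.1, the numbers were not taken to pair the samples. LRs given per culture or replicate match soma and neurites by number, and their SDs depend on that. A replicate block by number gave 17 calls for the LR change, 160 at 50 nM and 130 at 500 nM, and a Kcnj12 LR change of 2.41 in CAD and 0.61 in N2A (FDR 0.0227).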
